A study of Mus musculus with 32 samples.

Results

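The response of wild-type bone marrow-derived macrophages (BMDMs) to 5 h of lipopolysaccharide (LPS) was described from 8 of 32 RNA-seq libraries, 4 of untreated cells (0 h) and 4 of cells at 5 h of 100 ng/ml LPS, chosen by the genotype and time in their titles. For every time (0, 1, 5 and 18 h of LPS) the series holds 4 libraries of wild-type macrophages and 4 of macrophages lacking Nur77 (gene Nr4a1), a nuclear receptor that limits inflammatory gene expression. All mice were males of strain C57Bl6/J aged 6 to 12 weeks, and the knockout samples carry the genotype label cre. Bone marrow cells were grown into macrophages for 7 days in medium with 15% L929-conditioned medium as a source of the growth factor CSF-1. The labels do not say whether replicate libraries came from separate animals, so p-values measure the spread between libraries only. This spread was estimated from all 32 libraries.

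LPS, a component of the outer membrane of Gram-negative bacteria, is bound by CD14 and MD-2 and signals through Toll-like receptor 4. The adaptor MyD88 leads to NF-kB and MAP kinases and to genes induced without new protein synthesis, such as Tnf. The adaptor TRIF leads to IRF3 and interferon-beta, which acts back on the macrophage through its receptor, JAK kinases and STAT proteins, and so induces a secondary set of interferon-stimulated genes. Secondary genes such as Il12b, Il6 and Nos2 also need new proteins and chromatin remodelling, and rise later than the first genes.

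Counts kept for analysis, 1 transcript per gene, came to 10522140 to 15214524 per library at 0 h and 10206035 to 11535789 at 5 h. The 8 macrophage markers (among them Adgre1, Csf1r and Lyz2) were all measured, with a summed level of 13034 to 18588 CPM (counts per 1000000) at 0 h and 15413 to 16801 at 5 h. Summed markers of fibroblasts, erythroid cells and mast cells stayed at or under 4.28 CPM in each of these libraries, those of B cells at 19.2 to 27.3 CPM at 0 h and 11.4 to 17.0 at 5 h, and those of neutrophils at 12.0 to 21.1 and 24.7 to 32.3 CPM. Summed T or NK cell markers went from 1.40 to 2.25 CPM at 0 h to 28.4 to 33.8 at 5 h and dendritic cell markers from 1.22 to 1.51 to 13.1 to 19.0. Most of this was Lck and Xcr1, given with the surface proteins. In bulk RNA, more cells of a type and more RNA per cell cannot be told apart.

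At 5 h, 1769 of 11279 genes tested (15.7%) were higher than at 0 h and 2034 (18%) were lower, 33.7% together, at an adjusted p under 0.05 in edgeR's quasi-likelihood test and a change of over 1 on the log2 scale. Of the genes that rose, 920 rose over 4-fold, 429 over 10-fold and 91 over 100-fold, and of those that fell, 674 fell over 4-fold and 179 over 10-fold. The CPM ranges of the 4 libraries at 0 h and the 4 at 5 h did not overlap for 1740 of the genes that rose and 1995 of those that fell, against 70.3% of all genes tested with no overlap. Genes that rose held 12.4% of the CPM of all genes tested at 0 h and 45.4% at 5 h. Genes that fell went from 9.48% to 1.96%. The genes were chosen by their change in these same libraries, so the directions of both shares were fixed in advance. The log2 fold change of all genes had a median of -0.14 with the TMM scaling used throughout, -0.06 with DESeq2's size factors and -0.78 with library totals, in 3 scalings of the same counts. DESeq2's size factors gave 1883 genes higher and 1814 lower, and library totals 1136 higher and 4380 lower. All changes are relative to the TMM scaling, and the counts for each gene group are also given with library totals.

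**Figure D1:**
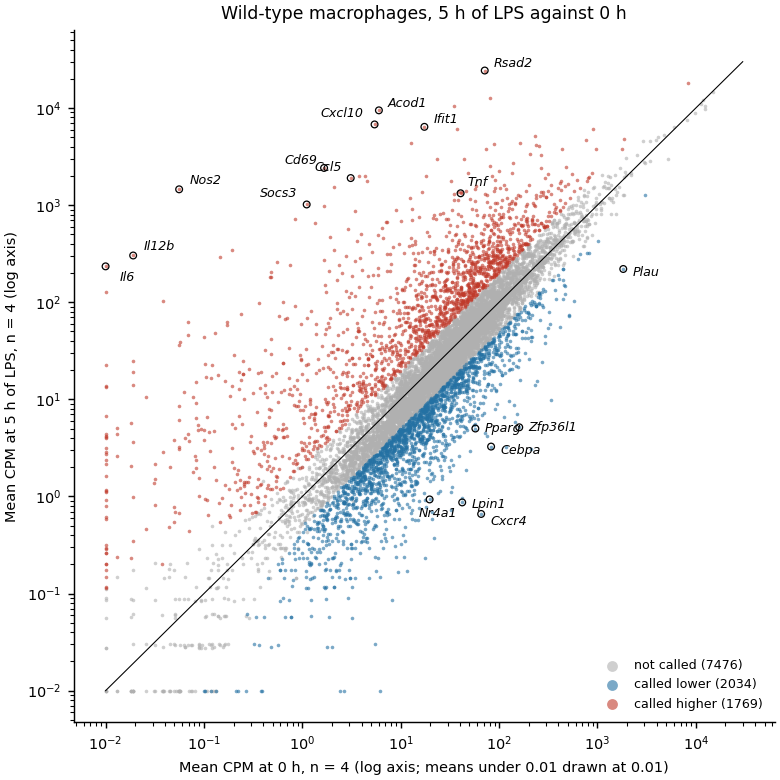
Mean CPM of each gene tested at 5 h of LPS (vertical, log axis) against 0 h (horizontal, log axis), 4 libraries each, with genes called higher in red (1769), called lower in blue (2034) and not called in grey; the line marks equal levels and means under 0.01 are drawn at 0.01. Il12b, Il6 and Nos2 go from under 0.1 CPM to over 200 CPM, while Plau and Cebpa fall below the line.

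Il12b, which encodes the p40 subunit shared by IL-12 and IL-23, had 0.0763, 0, 0 and 0 CPM in the libraries at 0 h and 326, 303, 308 and 276 at 5 h. Il6, a cytokine of the acute-phase response, had 0 CPM in each library at 0 h and 248, 208, 223 and 258 at 5 h. Both genes had at most 3 counts in each library at 0 h, so that against 3 counts per library (0.202 CPM on average at 0 h) Il12b was at least 1499-fold higher and Il6 at least 1159-fold higher (adjusted p = 3.58e-28 and 6.71e-19). Ifit1, an RNA-binding antiviral protein, had 20.1, 15.5, 21.0 and 13.0 CPM at 0 h and 6431, 6148, 6347 and 6676 at 5 h. It was already detected in resting cells and rose 368-fold (8.52 ± 0.18 on the log2 scale ± SE, adjusted p = 5.78e-27). None of these 3 genes overlapped between 0 and 5 h, which also held for 70.3% of all genes tested. Nr4a1 itself moved the other way, from 19.4, 15.5, 25.7 and 18.1 CPM at 0 h to 0.797, 0.979, 0.888 and 1.06 at 5 h (-4.38 ± 0.27 on the log2 scale, adjusted p = 3.29e-15), after 437 ± 60.3 CPM (mean ± SD, n = 4) at 1 h. The 5 h libraries thus came from a time when its transcript lay below its resting level, again without overlap.

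**Figure D2:**
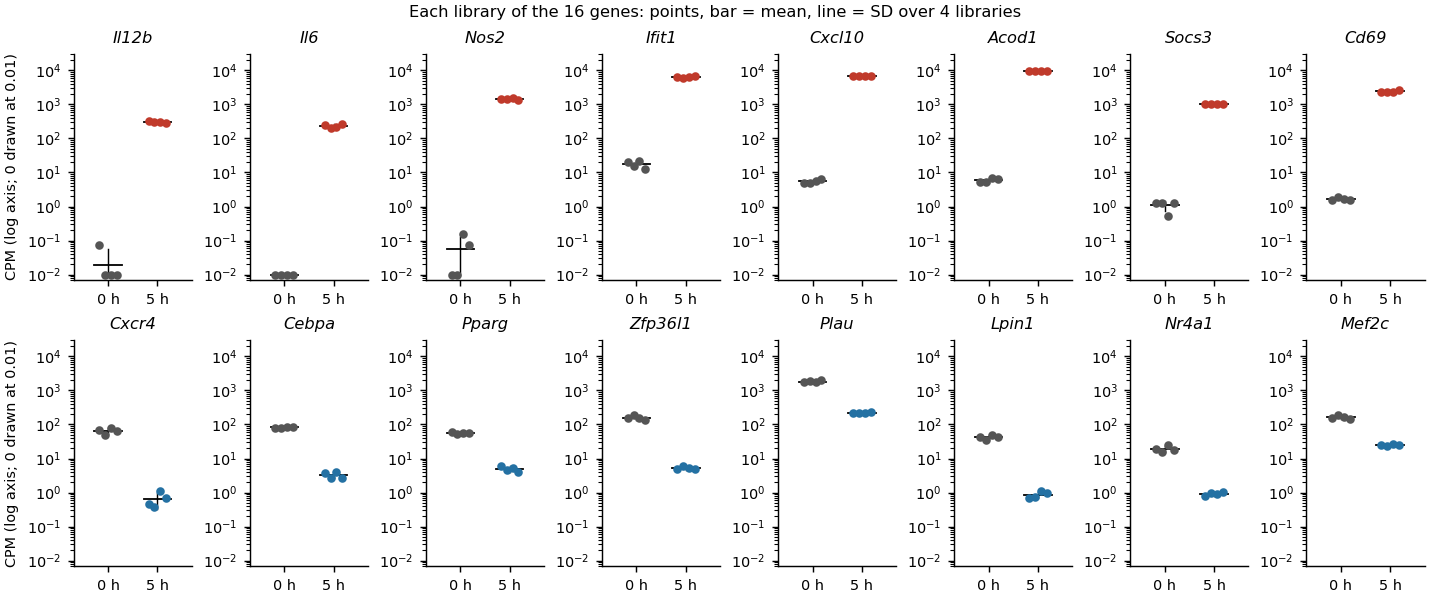
CPM of 16 genes in each wild-type library at 0 h (grey) and 5 h of LPS (red where higher, blue where lower), on a log axis on which 0 is drawn at 0.01; bars are means and lines SDs over 4 libraries. In each of the 16 genes the 4 libraries at 5 h lie wholly above or wholly below those at 0 h, as for 70.3% of all genes tested.

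Among genes with more than 3 counts in some library at 0 h and at least 10 CPM at 5 h, the 10 with the largest rises included Edn1, Lipg, Acod1, Cd69, Cxcl10, Socs3, Il1a, Ccl5 and Ptgs2, with rises of 566-fold to 1795-fold. Edn1, the vasoconstrictor endothelin-1, had 0.153, 0.208, 0.0756 and 0.145 CPM at 0 h and 286, 278, 279 and 319 at 5 h (10.81 ± 0.28 on the log2 scale, adjusted p = 9.68e-25). Lipg, endothelial lipase, had 0.0763, 0.260, 0 and 0.435 CPM and then 369.8, 339, 326 and 333. Both were near the lower limit of detection in resting cells, so their folds rest on a few counts. Acod1, which makes itaconate from a TCA cycle intermediate, had 5.19, 5.19, 7.11 and 6.53 CPM at 0 h and 9310.2, 9424, 9709 and 9423 at 5 h (10.63 ± 0.21, adjusted p = 3.36e-27). Socs3, an inhibitor of signalling by IL-6 family receptors, went from 1.30, 1.30, 0.529 and 1.31 to 1019.6, 1028, 1021 and 994 CPM. Genes had to show no overlap between the libraries at 0 and 5 h to enter this ranking.

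A further 100 genes that rose had at most 3 counts in every library at 0 h. Taken by RPKM (CPM per kilobase of transcript), the 10 highest at 5 h were Mir147, Nos2, Il6, Il12b, Cxcl11, Tarm1, Mir155hg, Hdc, Zfp811 and Adora2a. Nos2, the inducible nitric oxide synthase, had 0, 0, 0.151 and 0.0725 CPM at 0 h and 1458, 1480.3, 1529 and 1353 at 5 h, which is at least 7201-fold higher. It was still at 0.0958 ± 0.0344 CPM at 1 h. Hdc, which makes histamine, was at least 309-fold higher, Adora2a, a receptor for adenosine, at least 218-fold higher and Tarm1, a myeloid receptor that engages T cells, at least 515-fold higher. Mir155hg, the host transcript of miR-155, had 34.2, 27.2, 24.3 and 70.0 CPM at 5 h, with replicate 4 above the others. The row of Mir147 (chromosome 2, 122640803 to 122640881, mm10) lies inside AA467197 (122637887 to 122641076), whose level went from 0.742 ± 0.343 to 243 ± 11.5 CPM. Reads of the 2 cannot be told apart.

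Per kilobase of transcript, the largest gains were in Rsad2 (18.9 to 6434 RPKM), Cxcl10 (4.96 to 6194), Actb, Acod1, Ccl5, Ifit2, Cmpk2, Ifit1, B2m and Mmp13. Of these, 4 encode antiviral proteins (Rsad2, Cmpk2, Ifit2 and Ifit1). Actb, cytoskeletal actin and often used as a reference gene, had 8094, 7930, 8568 and 9071 CPM at 0 h and 18212, 18625, 18299 and 17968 at 5 h, a 2.17-fold rise (adjusted p = 3.09e-13). With library totals its log2 change was 0.49 and under the limit of 1. B2m, the light chain of class I MHC, behaved alike, with a 2.16-fold rise that came to 0.48 on the log2 scale with library totals. The collagenase Mmp13 rose from 37.6 ± 2.54 to 6124 ± 305 CPM (163-fold).

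Of 31 cytokine ligands tested, 25 rose and 3 fell (25 and 4 with library totals). Among all genes tested 15.7% rose and 18% fell, the shares to set beside this and every later group count. Their median log2 fold change was 4.84, or 3.64 with the genes at 3 counts or fewer at 0 h set to their lower bound, against -0.14 for all genes tested. Il1a and Il1b, the pyrogenic IL-1 cytokines, rose 735-fold and 530.3-fold, Il1b from 3.20, 2.91, 3.93 and 5.08 CPM to 1958, 2027, 1992 and 1986. Il33, an alarmin, was at 0 CPM in each library at 0 h and at 16.4, 12.4, 13.5 and 12.8 at 5 h. Tnf was at 43.9, 38.4, 36.3 and 44.0 CPM at 0 h and 1309, 1321, 1348 and 1322 at 5 h (32.6-fold), and Il10, which restrains inflammation, rose 30.4-fold to 32.7 ± 5.09 CPM. Ifnb1, interferon-beta, was at 0 CPM in each library at 0 h and at 4.78, 4.65, 4.00 and 2.72 at 5 h. The members that fell were Il16 (19.8 ± 2.95 to 1.44 ± 0.335 CPM), Tnfsf12 (96.6 ± 9.93 to 44.0 ± 3.07) and Tnfsf14. Tgfb1 (423 ± 38.6 and 375 ± 16.1 CPM) and Osm (5.15 ± 0.683 and 9.62 ± 0.910) did not pass. With the limit of 1 RPKM applied over wild type at 0 and 5 h only, 21 of the cytokine ligands rose and 2 fell.

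Of 22 chemokine ligands, 19 rose and none fell (17 and 1 with library totals), with a median of 4.33. All 3 ligands of CXCR3, a receptor on activated T cells, rose. Cxcl10 had 4.88, 4.98, 5.60 and 6.24 CPM at 0 h and 6685, 6683, 6856 and 6883 at 5 h (10.29 ± 0.12 on the log2 scale, adjusted p = 2.35e-32), Cxcl9 rose 254-fold and Cxcl11 at least 629-fold. Ccl5, an attractant of T cells and monocytes, rose from 3.51, 2.02, 3.33 and 3.55 CPM to 1885, 2003, 1916 and 1795, and Ccl3 rose 12.6-fold. Cxcl5, Cxcl12, Cxcl13 and Ppbp were below the RPKM limit and not tested, as were Csf3 and Tnfsf13b of the cytokines. Of the neutrophil attractants, Cxcl1 had 5.24, 5.39, 8.88 and 9.81 CPM at 5 h and Cxcl2 90.5, 90.6, 109 and 115. These are rises of 21.1-fold and 10.8-fold over 0 h. Ccl6 had 1527 ± 84.0 and 1286 ± 39.6 CPM and did not pass.

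All 40 antiviral interferon-stimulated genes tested rose, 36 of them also with library totals, with a median of 4.08 on the log2 scale and a range of 1.18 (Trim25) to 8.88 (Oasl1). Trim25 ubiquitinates the RNA sensor RIG-I, and Oasl1 belongs to the 2'-5' oligoadenylate synthetase family. Rsad2, the enzyme viperin, had 76.6, 63.8, 86.0 and 59.6 CPM at 0 h and 24198, 23461, 24508 and 25163 at 5 h (340.4-fold, adjusted p = 7.96e-27). Cmpk2, a mitochondrial nucleotide kinase next to Rsad2, had 38.0, 29.0, 41.4 and 29.8 and then 10797, 10166, 10513 and 10871, and Ifit2 went from 80.7 ± 20.0 to 12770 ± 564 CPM. These rises exceeded the spread among libraries at either time many times over. Ifit3 and Ifit3b, and Oas1a and Oas1g, are near-identical copies whose shared reads the mapping-quality filter may have removed, so their values are uncertain.

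The promoters of Ifit1, Rsad2, Cxcl10 and Il6 are shown because interferon and NF-kB act through short motifs near the start site. They are the 300 bases from 250 before to 50 after the start, from the RefSeq annotation of GRCm38.p6, on the strand of the gene. Capitals mark matches on either strand to the interferon-stimulated response element (ISRE), here GAAA, any 2 bases and GAAA, which STAT complexes and IRF proteins bind, and to the NF-kB motif, here GGG, any 5 bases and CC.
Ifit1, chr19:34640639-34640938, plus strand: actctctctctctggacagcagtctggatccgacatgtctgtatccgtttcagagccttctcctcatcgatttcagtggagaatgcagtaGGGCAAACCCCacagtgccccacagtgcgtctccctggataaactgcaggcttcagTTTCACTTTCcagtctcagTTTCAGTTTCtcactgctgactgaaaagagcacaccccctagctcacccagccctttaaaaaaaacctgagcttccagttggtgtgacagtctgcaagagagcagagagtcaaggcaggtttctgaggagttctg
Rsad2, chr12:26456403-26456702, minus strand: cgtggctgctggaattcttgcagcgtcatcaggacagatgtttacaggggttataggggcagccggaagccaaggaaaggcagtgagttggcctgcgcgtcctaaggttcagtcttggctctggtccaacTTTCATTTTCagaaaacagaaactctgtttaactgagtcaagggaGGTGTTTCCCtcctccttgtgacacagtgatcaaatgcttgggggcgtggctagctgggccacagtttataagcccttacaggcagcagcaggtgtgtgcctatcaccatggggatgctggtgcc
Cxcl10, chr5:92348840-92349139, minus strand: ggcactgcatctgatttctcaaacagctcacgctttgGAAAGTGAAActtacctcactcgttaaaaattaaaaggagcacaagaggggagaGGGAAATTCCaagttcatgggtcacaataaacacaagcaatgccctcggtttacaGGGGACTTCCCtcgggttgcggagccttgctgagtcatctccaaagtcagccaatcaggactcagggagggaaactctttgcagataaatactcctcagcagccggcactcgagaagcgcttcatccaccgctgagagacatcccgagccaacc
Il6, chr5:30012864-30013163, plus strand: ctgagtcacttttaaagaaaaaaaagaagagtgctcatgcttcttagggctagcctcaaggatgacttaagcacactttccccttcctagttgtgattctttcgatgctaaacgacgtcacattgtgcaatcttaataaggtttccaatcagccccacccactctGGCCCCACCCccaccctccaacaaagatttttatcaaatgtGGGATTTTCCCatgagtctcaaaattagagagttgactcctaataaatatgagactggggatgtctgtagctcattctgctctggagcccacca
With the start site as position 0, Ifit1 held ISRE matches at positions -104 to -95 and -85 to -76 and overlapping NF-kB matches that begin at -160 and -159. Rsad2 held an ISRE match at -120 to -111 and an NF-kB match at -75 to -66. Cxcl10 held 1 ISRE match at -213 to -204 and NF-kB matches beginning at -159, -104 and -103, the last 2 overlapping. Il6 held no ISRE match and NF-kB matches that begin at -85, -44 and -43. The window of Il12b held no match to either pattern as written here, which does not show that it lacks a binding site.

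An ISRE match lay in 16 of 35 promoter windows of the antiviral genes (45.7%, 95% Wilson interval 30.5 to 61.8%), against 3.44% of 32851 windows of all genes, 7.82% of 1816 windows of the genes that rose and 2.12% of 2080 windows of those that fell. Of 18 interferon-inducible GTPases, 10 had a window in the table, and 10 of their 11 windows (90.9%) held it. The NF-kB motif is so loose that 50.8% of windows of all genes and 66.7% of those of all genes tested held it. So did 66.7% of windows of the genes that rose and 66.3% of those that fell. In the cytokine ligands it lay in 56.7% of 30 windows (interval 39.2 to 72.6%). In the chemokine ligands it lay in 9 of 18 (29.0 to 71.0%). Both intervals hold the share of all genes and that of all genes tested. A match is a description of letters, not a site shown to be bound.

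**Figure D3:**
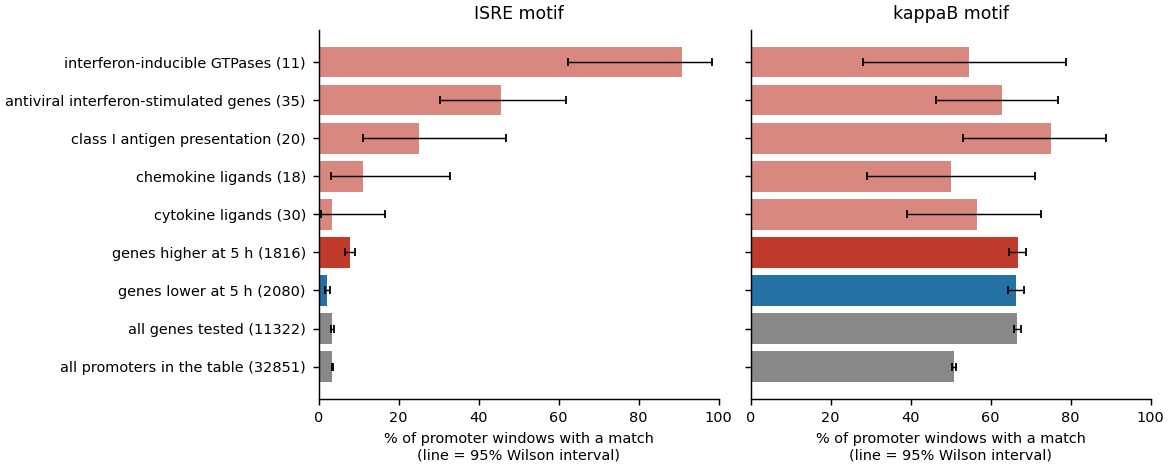
Percent of promoter windows (horizontal, from 0 to 100) with a match to the ISRE (left) and the NF-kB motif (right), by gene set with the number of windows in brackets; lines are 95% Wilson intervals. The ISRE share runs from 2.12% in genes that fell to 90.9% in the interferon-inducible GTPases, while the NF-kB share is 66.7% in genes that rose and 66.3% in genes that fell.

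The interferon-inducible GTPases, which attack the vacuoles of intracellular microbes, all rose (18 of 18, also with library totals) with a median of 5.69 on the log2 scale. Their ISRE matches are shown with 5 bases on either side (GRCm38.p6, first match of each gene), on the strand of the gene, to compare guanylate-binding proteins (Gbp) with immunity-related GTPases (Irgm1, Irgm2, Igtp and Tgtp1).
Gbp2, chr3:142620599-142620618, 59 bases before the start: tttagTTTCACTTTCactgt
Gbp3, chr3:142559994-142560013, 45 bases before the start: cacagTTTCAGTTTCtattt
Gbp5, chr3:142496764-142496783, 165 bases before the start: tgtagTTTCAATTTCagttt
Gbp7, chr3:142530278-142530297, 53 bases before the start: tgcagTTTCAGTTTCagttc
Igtp, chr11:58199517-58199536, 34 bases before the start: gaactGAAACTGAAAgctgt
Irgm2, chr11:58214908-58214927, 64 bases before the start: gaactGAAACTGAAAgctgt
Tgtp1, chr11:48992309-48992328, 77 bases before the start: gaatcGAAACTGAAAcctac
Irgm1, chr11:48871436-48871455, 30 bases before the start: ttcaaGAAATAGAAAccgaa
In the Gbp genes shown the motif lies on the opposite strand and in the immunity-related GTPases on the strand of the gene, and Igtp and Irgm2 share all 20 bases. Gbp5, which also promotes inflammasome activation, had 14.5, 9.45, 16.1 and 11.3 CPM at 0 h and 4264, 4305, 4511 and 4349 at 5 h (341-fold, adjusted p = 3.24e-23). Gbp2 rose from 88.0 ± 13.8 to 4292 ± 112 CPM, Gbp4 197-fold, Iigp1 113-fold and Tgtp1 155-fold. Gbp8 had the smallest rise, 5.75-fold. Tgtp1 and Tgtp2 are near-identical, as are several Gbp genes, and how their reads were shared is uncertain.

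Of 21 genes of interferon receptors and signalling, 19 rose and 1 fell, with a median of 1.85 (12 and 2 with library totals). The gene that fell was Ifngr1, the ligand-binding chain of the interferon-gamma receptor, from 226, 221, 268 and 236 CPM to 88.7, 89.8, 91.7 and 92.3 (-1.39 ± 0.09 on the log2 scale, adjusted p = 3.44e-15). The receptor chain for type I interferon, Ifnar1, rose 3.72-fold (167 ± 9.75 to 622 ± 6.18 CPM). Jak2, a receptor-associated kinase, had 40.6, 42.5, 42.1 and 39.2 CPM at 0 h and 1347, 1275, 1385 and 1423 at 5 h. Irf7, an amplifier of interferon production, rose 34.7-fold and Socs1, which inhibits JAK kinases, 94.9-fold. Irf3, which acts on Ifnb1 and is regulated as a protein, had 21.8 ± 1.15 and 15.6 ± 0.467 CPM and did not pass.

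Of 14 genes of NF-kB subunits, IkB proteins and their kinases, 10 rose and none fell (9 and 1 with library totals), with a median of 2.92. Nfkbiz, the nuclear IkB-zeta that Il6 and Il12b need, had 11.3, 8.82, 9.53 and 8.63 CPM at 0 h and 367, 391, 416 and 406 at 5 h (5.37 ± 0.10, adjusted p = 9.09e-28). Nfkbia, the inhibitor that shuts NF-kB off, rose 18.8-fold, Nfkbie 11.8-fold and the subunit precursor Nfkb2 12.4-fold. The subunit Rela rose 3.07-fold, and with library totals its log2 change was 0.99 and under the limit. Nfkbid, another nuclear IkB, had 25.6, 27.5, 22.2 and 26.0 CPM and then 12.6, 10.3, 11.5 and 16.4 (-0.99), and Ikbkb, a kinase of IkB, 70.8 ± 3.88 and 139 ± 5.50. Both missed the limit of 1 on the log2 scale, Ikbkb at 0.98. Nfkbid passed as lower with library totals (-1.63), without replicate 3 at 0 h (-1.05) and without replicate 4 at 5 h (-1.14), and Ikbkb passed as higher with DESeq2's size factors (1.07) and when only the compared libraries were fitted (1.06).

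Of 27 negative feedback regulators, 18 rose and 5 fell, with a median of 1.66 (14 and 6 with library totals). Tnfaip3, the ubiquitin-editing enzyme A20, had 103, 115, 114 and 112 CPM at 0 h and 1596, 1586, 1656 and 1655 at 5 h (14.6-fold). Gpr84, a receptor for medium-chain fatty acids that is not itself an inhibitor, rose 78.7-fold, Cish 27.2-fold and the MAP kinase phosphatase Dusp2 14.9-fold. The members that fell were Zfp36l1, Dusp6, Inpp5d, Dusp5 and Dusp4. Zfp36l1, which promotes decay of AU-rich mRNAs, had 156, 192, 159 and 135 CPM at 0 h and 4.78, 5.88, 5.11 and 4.85 at 5 h (-4.96 ± 0.16, adjusted p = 2.85e-22). Inpp5d, the lipid phosphatase SHIP1, fell from 209, 186, 236 and 225 CPM to 46.0, 44.6, 43.7 and 40.4. Dusp6, a phosphatase of ERK kinases, went from 91.8 ± 18.9 to 7.89 ± 0.883 CPM. Members of 1 family of MAP kinase phosphatases therefore lay on both sides, Dusp1 7.26-fold higher and Dusp6 11.7-fold lower.

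Of 24 genes of LPS sensing and Toll-like receptor signalling, 11 rose and 1 fell, with a median of 0.73 (10 and 4 with library totals). Of all genes tested 15.7% rose and 18% fell. Tlr5, and Sigirr, Alox5, H2-Ob, Bmpr1a and Smad6 among the members of other groups, were too low to be tested. The LPS receptor Tlr4 had 156, 192, 150.0 and 140.2 CPM at 0 h and 126, 107, 117 and 134 at 5 h and did not pass (-0.40 ± 0.20, adjusted p = 0.0766). With library totals its change was -1.04 and passed. Its co-receptor Cd14 rose 3.37-fold, and the adaptor Myd88 4.50-fold. Of the other receptors, Tlr3, which binds double-stranded RNA, rose from 14.8, 18.9, 13.9 and 14.0 CPM to 273, 230.2, 266 and 296 and Tlr2, for lipoproteins, 10.7-fold. Tlr13, which senses bacterial ribosomal RNA, fell from 478, 449, 461 and 464 to 125, 121, 124 and 118 CPM (-1.92 ± 0.08). The kinase Map3k8 rose 6.87-fold, while Irak4, a kinase recruited by MyD88, had 40.1 ± 2.25 and 21.6 ± 0.798 CPM and did not pass.

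Of 29 genes of effector enzymes and secreted effectors, 20 rose and 2 fell (19 and 5 with library totals), with a median of 2.69. Ptgs2, the inducible cyclooxygenase, had 1.83, 2.39, 0.756 and 1.74 CPM at 0 h and 945, 852, 1011 and 1131 at 5 h, while Ptgs1, the constitutive one, went from 17.2, 14.7, 18.3 and 16.5 to 5.69, 5.51, 7.77 and 7.33. Plau, urokinase, had 1720.4, 1858, 1759.6 and 1985 CPM at 0 h and 216, 215, 223 and 227 at 5 h (-3.06 ± 0.10, adjusted p = 1.53e-22). Arginase 1, Arg1, had 1.18 ± 0.270 and 0.951 ± 0.468 CPM and heme oxygenase 1, Hmox1, 447 ± 22.1 and 240.3 ± 12.2, and neither passed.

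Of 26 inflammasome and cell death genes, 17 rose and 2 fell (15 and 2 with library totals), with a median of 2.42. Nlrp3, a sensor that is limiting for IL-1 release in resting macrophages, had 90.6, 86.8, 93.6 and 93.4 CPM at 0 h and 842, 918, 968 and 859 at 5 h (9.84-fold). The survival genes Bcl2a1a, Bcl2a1d and Cflar rose to 80.9 ± 4.55, 312 ± 10.8 and 1834 ± 48.6 CPM, the first 66.1-fold and the last 20.0-fold, and the kinase Ripk2 20.3-fold. The Bcl2a1 copies are near-identical, and their single values are uncertain. The members that fell were the flagellin sensor Nlrc4 (17.5, 16.5, 15.9 and 17.3 CPM and then 7.40, 6.61, 6.66 and 8.04) and the pro-apoptotic Pmaip1 (22.6 ± 1.03 and then 9.62 ± 2.82).

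Of 21 class I genes, 16 rose and none fell (13 with library totals), with a median of 2.02, and of 11 class II genes, 1 rose and none fell (0 and 2 with library totals), with a median of 0.34. Nlrc5, the transactivator of class I genes, had 43.0, 36.2, 35.8 and 32.4 CPM at 0 h and 499, 485, 527 and 529 at 5 h, and the peptide transporter Tap1 56.5, 54.4, 65.8 and 59.9 and then 796, 802, 825 and 766. The classical heavy chains H2-K1 (636 ± 65.0 to 1226 ± 45.0 CPM) and H2-D1 (1688 ± 193 to 2409 ± 114) did not pass, although H2-K1 did with DESeq2's size factors (1.04) and without replicate 3 at 0 h, while H2-Q6 rose 9.22-fold and H2-T22 6.11-fold. Class I heavy chains share much sequence, and how reads were divided among them is uncertain. Ciita, the transactivator of class II genes, had 4.12, 3.01, 3.33 and 5.80 CPM at 0 h and 9.00, 9.79, 12.1 and 9.22 at 5 h (1.31 ± 0.23), and passed with TMM but not with library totals (0.68). Cd74, the invariant chain, had 234 ± 42.3 and 348 ± 40.8 CPM and H2-Ab1 34.8 ± 6.97 and 54.5 ± 6.14.

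Of 23 costimulatory and adhesion proteins, 21 rose and none fell (20 and 0 with library totals), with a median of 3.23. Cd40, the receptor for T cell help, had 3.97, 4.67, 4.99 and 4.50 CPM at 0 h and 1808, 1834, 1772 and 1758 at 5 h (8.62 ± 0.17, adjusted p = 2.81e-27). Cd69, an early activation marker of lymphocytes, went from 1.60, 1.87, 1.66 and 1.52 to 2376, 2238, 2333 and 2716 CPM. Clec4e, a receptor for mycobacterial cord factor, rose 95.1-fold and Slamf1 85.6-fold. Lck, a T cell kinase named here after its values were seen, had 0.534, 0.519, 0.454 and 0.435 CPM at 0 h and 26.3, 30.6, 29.5 and 29.6 at 5 h (5.86 ± 0.24, adjusted p = 7.95e-20). The defining T cell genes Cd3d, Cd3e and Cd3g had at most 3, 4 and 4 counts in any of the 8 libraries. The chemokine receptor Xcr1, a marker of conventional dendritic cells and likewise chosen after its values were seen, went from 0.153, 0.727, 0.378 and 0.218 to 15.5, 12.1, 9.99 and 14.4 CPM, with Flt3 at most at 4 counts and Zbtb46 at 7.

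**Figure D4:**
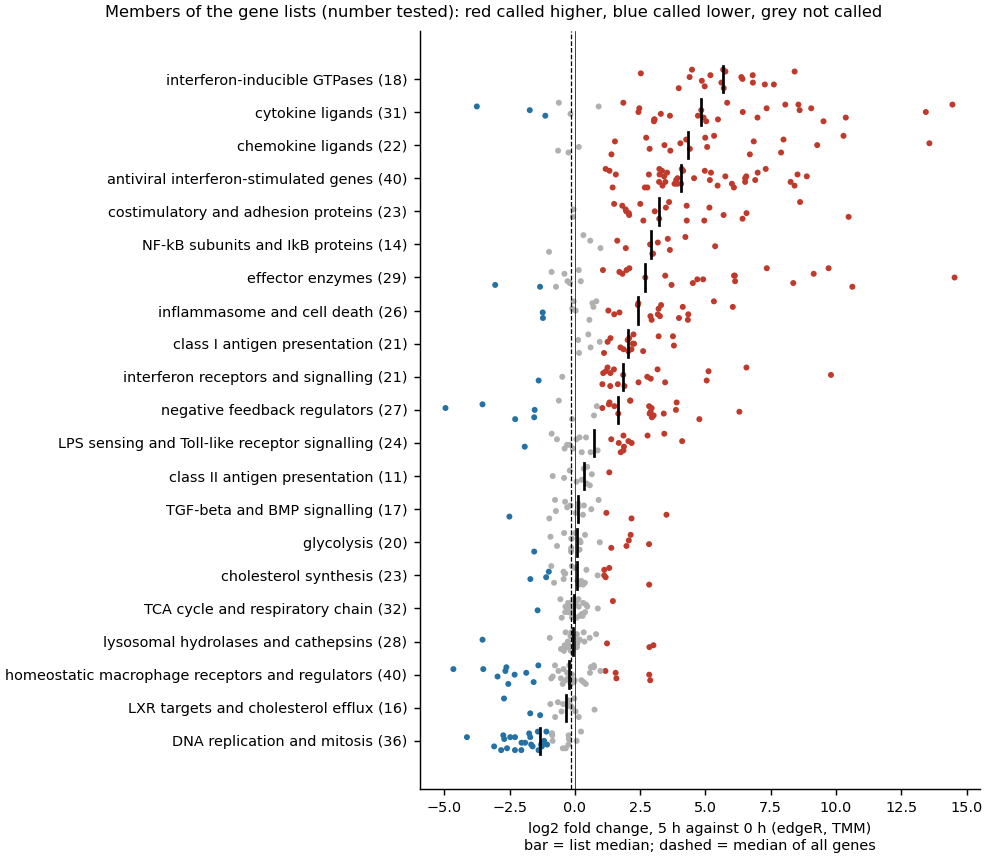
Log2 fold change at 5 h against 0 h (horizontal) of each tested member of the 21 gene groups, with the number tested in brackets; red points were called higher, blue points called lower and grey points not called, black bars are group medians and the dashed line is the median of all genes (-0.14). Medians run from -1.35 for DNA replication and mitosis to 5.69 for the interferon-inducible GTPases.

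Among genes with at least 10 CPM at 0 h, the largest falls were in Cxcr4, Tacc2, Sesn1, Cdca7, Plekhg3, Lpin1, Bmf, Fam214a, Zfp395 and Arhgap19, chosen among genes without overlap. Cdca7 and Bmf had at most 3 counts in each library at 5 h and were at least 33.3-fold and 31.1-fold lower, and the others were 36.5-fold to 96.8-fold lower. Cxcr4, the receptor of the bone marrow chemokine Cxcl12, had 70.7, 48.0, 80.5 and 63.8 CPM at 0 h and 0.455, 0.367, 1.11 and 0.709 at 5 h (-6.60 ± 0.24, adjusted p = 4.79e-21). Sesn1, a stress-induced inhibitor of mTORC1, had 217, 194, 227 and 204 CPM and then 2.51, 3.67, 2.77 and 3.31. Lpin1, which makes diacylglycerol from phosphatidate, had 42.5, 34.4, 47.6 and 44.4 CPM and then 0.683, 0.734, 1.11 and 0.946. The 5 h libraries of Tacc2, Cdca7, Plekhg3 and Bmf held 0 to 0.569 CPM. Bmf is a pro-apoptotic BH3-only protein.

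Per kilobase of transcript, the largest losses were in Plau (782 to 93.9 RPKM), Sirpa, Atp6v0a1, Dhrs3, Myo1f, Cyth4, Arhgap25, Cd300lb, Nrp1 and Lat2. Sirpa, the receptor for the don't-eat-me signal CD47, had 3057, 2844, 3129.9 and 3219 CPM at 0 h and 1245, 1309, 1303 and 1219 at 5 h (-1.27 ± 0.08, adjusted p = 1.00e-14). Cd300lb, an activating receptor, had 344, 316, 344 and 351 CPM and then 10.5, 9.42, 8.44 and 10.6. It fell 34.8-fold, while Nrp1 fell 2.12-fold and did not pass with DESeq2's size factors. Myo1f is a class I myosin, and Atp6v0a1 a subunit of the vacuolar proton pump.

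Of 40 homeostatic macrophage receptors and regulators, 5 rose and 10 fell, with a median of -0.24 (2 and 17 with library totals). The shares called are near those of all genes tested (15.7% higher and 18% lower), as is the median (-0.14). The members that fell included both transcription factors and receptors. Cebpa, a factor of myeloid differentiation, had 81.0, 77.2, 87.1 and 86.6 CPM at 0 h and 3.64, 2.69, 4.00 and 2.72 at 5 h (-4.66 ± 0.18, adjusted p = 1.54e-20). Pparg, a nuclear receptor of lipid metabolism, had 62.3, 52.6, 57.6 and 57.2 CPM and then 6.04, 4.65, 5.33 and 4.02, and its dimer partner Rxra 52.1, 45.0, 59.4 and 53.5 and then 8.08, 6.98, 6.88 and 4.85. Mef2c, a factor that MAP kinases act on, had 152, 189, 162 and 140.3 CPM and then 25.8, 24.0, 26.4 and 25.2. These 4 factors fell 6.35-fold to 25.2-fold with no overlap of libraries, as for 1995 of all 2034 genes that fell. Klf2 also fell. Spi1, the master regulator PU.1, had 198 ± 13.4 and 389 ± 18.8 CPM and did not pass (0.98 ± 0.09), though it did with DESeq2's size factors (1.06) and without replicate 4 at 5 h (1.01). Of the receptors, Cd163, Gpr34, Ccr2 and Cx3cr1 fell, and Fcgr2b, P2ry13, Mertk, Msr1 and Axl rose. Fcgr2b, the inhibitory Fc receptor, went from 88.1, 63.8, 106 and 85.5 CPM to 617, 651, 641 and 622, while Csf1r, the receptor of CSF-1, had 1849.9 ± 224 and 1274 ± 95.7 and did not pass. With library totals Mertk (0.95) and Msr1 (0.92) no longer passed and Csf1r did (-1.17).

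Of 36 genes of DNA replication and mitosis, 24 fell and none rose, with a median of -1.35 (29 with library totals). Cdc6, which loads the replicative helicase, had 12.7, 11.9, 12.9 and 14.4 CPM at 0 h and 0.455, 0.979, 0.777 and 0.709 at 5 h (-4.14 ± 0.20, adjusted p = 1.23e-17). The spindle motor Kif11 had 44.6, 49.7, 38.9 and 35.5 CPM and then 4.55, 6.36, 5.55 and 8.75, the checkpoint kinase Bub1b 27.0, 27.7, 27.0 and 27.1 and then 4.55, 4.16, 4.22 and 3.66, and Cenpf fell 8.55-fold. Pcna, the polymerase clamp, had 497 ± 35.5 and 519 ± 25.6 CPM and did not pass. Whether fewer cells were cycling or each held less of these RNAs cannot be told apart.

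In glycolysis 5 of 20 rose (Pfkfb3, Hk2, Hif1a, Pfkp and Hk1) and 1 fell (Pfkfb4), with a median of 0.10 (4 and 4 with library totals). Together these are near the 33.7% of all genes tested that were called. Pfkfb3, which makes the activator of phosphofructokinase, had 47.6, 42.4, 51.3 and 46.9 CPM at 0 h and 337, 322, 326 and 358 at 5 h, and its relative Pfkfb4 42.3, 32.9, 40.7 and 39.5 and then 12.8, 13.2, 13.1 and 13.5. Hk2 rose 4.39-fold and the factor Hif1a 4.17-fold, whereas the glucose transporter Slc2a1 (70.1 ± 6.49 and 81.3 ± 3.71 CPM) and Ldha (574 ± 43.7 and 649 ± 8.14) did not pass. Of 32 TCA cycle and respiratory chain genes, Cycs (cytochrome c, 45.0 ± 5.93 to 123 ± 9.81 CPM) rose and Idh1 (273, 206, 285 and 263 CPM and then 99.1, 97.4, 98.3 and 86.1) fell, with a median of -0.05 (0 and 4 with library totals), a smaller share than among all genes tested. Idh1 makes cytosolic NADPH. Reads of Gapdh were nearly absent (2.29 CPM at 0 h), and its row was not read as a level.

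In cholesterol synthesis and uptake 5 of 23 rose and 3 fell, with a median of 0.10 (1 and 9 with library totals, so that the balance of the group turns with the scaling). This is about the share called among all genes tested (33.7%). Insig1, which retains the sterol sensor in the endoplasmic reticulum, rose 2.26-fold and the isomerase Idi1 2.18-fold, and Hmgcs1 also rose. Dhcr7, of the last step, fell from 17.5, 14.4, 18.3 and 19.3 to 4.90, 7.10, 5.44 and 3.78 CPM, the sterol carrier Stard4 fell 2.15-fold, and Lss, at the limit, did not pass with DESeq2's size factors (-0.91), without replicates 1 or 3 at 5 h (-0.98 and -0.92) or without replicates 2 or 4 at 0 h. Idi1 was under the limit without replicate 1 at 5 h (0.99), and neither it (0.49) nor Insig1 (0.54) passed with library totals. Of 16 LXR targets and efflux genes none rose and Scd2, Fasn and Mylip fell (8 with library totals), with a median of -0.35, and the share that fell is near the 18% of all genes. Scd2, a fatty acid desaturase, had 283, 298, 282 and 309 CPM and then 43.5, 43.2, 45.7 and 45.6, and the cholesterol exporter Abca1 777, 737, 875 and 733 and then 399, 477, 576 and 392, which did not pass (-0.76).

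Among 28 lysosomal genes Ctsc, Tfec and Mitf rose and Tfeb fell, with a median of -0.08 (2 and 6 with library totals), both smaller shares than among all genes. Tfeb, Tfec and Mitf are members of 1 family of transcription factors that drives lysosomal genes. Tfeb had 23.5, 29.9, 27.4 and 29.2 CPM at 0 h and 2.28, 2.57, 2.44 and 2.13 at 5 h (-3.54 ± 0.18, adjusted p = 1.66e-17), Tfec 15.6, 15.4, 17.1 and 16.5 and then 116, 116, 119 and 114. Mitf rose 2.34-fold, a change that did not pass with library totals (0.59). Ctsc, the protease that activates granzymes, rose from 132 ± 9.85 to 1058 ± 23.4 CPM. In TGF-beta and BMP signalling, Skil, Acvr1 and Tgfbi rose and Smad3 fell among 17 tested (2 and 5 with library totals), with a median of 0.12. The share that rose is near the 15.7% of all genes and the share that fell below 18%, and Tgfbi did not pass with library totals (0.57). Smad3, which carries the signal to the nucleus, had 19.8, 22.0, 23.1 and 21.3 CPM at 0 h and 4.33, 4.16, 4.22 and 2.36 at 5 h, and Skil, which represses it, 36.2, 41.1, 39.5 and 38.0 and then 427, 412, 459 and 460.1.

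The 1 h and 18 h libraries place these levels in time. At 5 h 1588 genes (14.1%) were higher than at 1 h and 1822 (16.2%) lower, and 1608 (14.3%) were higher than at 18 h and 1791 (15.9%) lower. In either direction these are 30.2% and 30.1% of the genes tested. These comparisons share the 5 h libraries with the one against 0 h, so their values are given side by side only. A first group of induced genes had passed its peak by 5 h. Cxcl1 had 397 ± 30.0 CPM at 1 h and 7.33 ± 2.36 at 5 h (-5.75 on the log2 scale, adjusted p = 2.67e-19), and Tnf, Cxcl2, Nfkbiz, Dusp1, Il10 and Ifnb1 were also lower than at 1 h, with differences of -1.49, -4.34, -1.88, -2.08, -2.67 and -2.34 on this scale. Zfp36l1 (586 ± 70.8 CPM at 1 h) and Dusp5 (176 ± 19.5) had their highest means at 1 h and lay below the resting level at 5 h.

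A second group had its highest mean at 5 h. Il12b went from 19.0 ± 3.08 CPM at 1 h to 303 ± 20.6 at 5 h and was down to 37.0 ± 3.37 by 18 h. It was higher at 5 h than at either time (4.00 and 3.03 on the log2 scale, adjusted p = 2.83e-23 and 1.50e-20). Il6 went from 234 ± 22.8 CPM to 4.11 ± 1.46 at 18 h and Edn1 from 290.3 ± 19.3 to 10.1 ± 2.05. By group, 21 of 31 cytokine ligands and 17 of 22 chemokine ligands were higher at 5 h than at 18 h, and 1 and 1 lower. Of the antiviral genes, all 40 were higher at 5 h than at 1 h, and 8 were higher and 4 lower than at 18 h.

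The last group was still rising. Saa3, an acute-phase protein, had 464 ± 17.6 CPM at 5 h and 5818 ± 766 at 18 h (-3.65, adjusted p = 3.14e-22). Ccl5, Irf7, Oas3 and Ifi44 were also lower at 5 h than at 18 h, with differences of -1.09, -1.24, -1.23 and -2.06 on the log2 scale, and Bst2 had 159.6 ± 3.75 CPM at 5 h and 637 ± 94.1 at 18 h. In class I presentation 6 of 21 genes were lower at 5 h than at 18 h and none higher, H2-Q6 at 37.2 ± 3.27 against 325 ± 26.5 CPM. Among the genes that fell, some were back near their resting level at 18 h, Tfeb at 32.9 ± 2.68 CPM, Scd2 at 291 ± 20.0, Smad3 at 23.3 ± 2.30 and Sirpa at 3124 ± 30.4. Others were still below their resting means, Pparg at 10.1 ± 0.811, Cdc6 at 1.58 ± 0.495 and Kif11 at 1.72 ± 0.357.

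**Figure D5:**
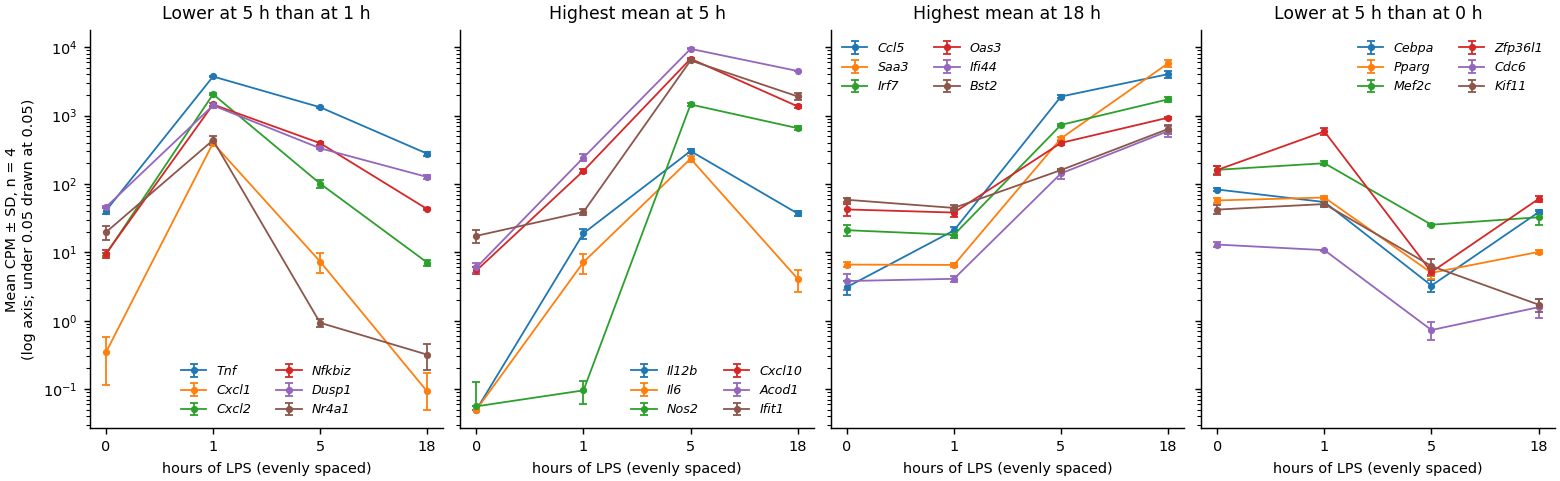
Mean CPM ± SD of 4 wild-type libraries at 0, 1, 5 and 18 h of LPS (evenly spaced; log axis, values under 0.05 drawn at 0.05) for genes lower at 5 h than at 1 h, genes with their highest mean at 5 h, genes with their highest mean at 18 h and genes lower at 5 h than at 0 h. Il6 falls from 234 CPM at 5 h to 4.11 at 18 h, while Saa3 rises from 464 to 5818.

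The 5 h response was set against that of the knockout in 1 model with an interaction term. Nr4a1 had 5.24 ± 1.19 CPM at 0 h and 0.313 ± 0.261 at 5 h in the knockout libraries, against 19.7 ± 4.34 and 0.932 ± 0.115 in wild type. The log2 change at 5 h was higher in the knockout for 195 genes (1.73%) and lower for 155 (1.37%), together 3.1%, at an adjusted p under 0.05. A gene that fell counts as higher where it fell less in the knockout, and as lower where it fell further. Of the interferon-inducible GTPases 7 of 18 had a larger response in the knockout, and each of these had a lower mean there at 0 h than in wild type. Gbp2 had 31.6 ± 0.395 CPM at 0 h in the knockout against 88.0 ± 13.8 in wild type, and 5879 ± 1961 against 4292 ± 112 at 5 h (difference of responses 1.93 ± 0.36 on the log2 scale, adjusted p = 0.00189). Pfkfb3 had a smaller response in the knockout (-1.02 ± 0.10, adjusted p = 4.90e-08), with 70.0 ± 2.40 CPM at 0 h and 247 ± 15.4 at 5 h. These counts were unstable. Log2 changes higher in the knockout numbered 299 without replicate 3 of the knockout at 5 h, 130 without its replicate 3 at 0 h, and 79, beside 87 lower, when only the libraries compared were fitted.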

How the data were processed

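Polyadenylated RNA of BMDMs was sequenced as paired-end reads. The authors aligned reads to mm10 (HISAT2 2.1.0 per the labels), filtered them on mapping quality and used HOMER to count tags per RefSeq transcript. The deposited values are expected counts without normalization, in multiples of 0.5 (28.6% not whole). Whether counting used the strand is not stated, so overlapping and antisense genes may share reads. Of 42361 transcripts 93 had no gene name, held 0.233 to 1.37% of tags and were left out. Each of 25067 genes was represented by its most abundant transcript (by mean count), and counts were rounded. edgeR 4.0.16 (R 4.3.3) fitted 1 mean per group to 32 libraries with TMM scaling and its quasi-likelihood test. Testing was limited to 11279 genes whose group mean exceeded 1 RPKM in some group, with Benjamini-Hochberg adjustment over all of them, at a limit of 0.05 and a log2 change over 1 (interaction: 0.05 only). On simulated data for 5 h against 0 h with 12215 genes, it recovered 98.5% of 200 genes changed 4-fold. As many of these were raised as lowered and all other genes were equal, unlike the data, so the simulation could not test the scaling. CPM use TMM sizes. Bounds against 3 counts per library and intervals cover counting error only. Replicates differed by more than counting noise in each pair of libraries (chi-square per degree of freedom over 1 in every pair of a wild-type group). DESeq2 1.42.0, other scalings, filters and left-out libraries were alternatives.

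Members, lists and tests were chosen with earlier results of these data known. Named genes were the 3 markers and Nr4a1, the 10 largest rises and falls (at least 10 CPM in the higher group, no overlap), the 10 highest in RPKM among those at 3 counts or fewer at 0 h, the 10 largest gains and losses in RPKM, and for each list up to 4 called members each way, its key receptor, ligand, enzyme or regulator, and up to 2 that did not pass. Some genes that this rule gives are not reported here. Motifs were searched on both strands of RefSeq promoter windows (GRCm38.p6), found for 8929 of the genes tested.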

Additional observations from a re-analysis of the deposited data

Results flagged for a closer look

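Of 336 groups of 4 libraries (168 named genes at 0 and 5 h), 14 held a library far from the other 3 by Dixon's test, and chance gives about 1 in 20 groups. At 0 h, Il12b stood at 0.0763 CPM in replicate 1 and Mir155hg at 0.229 CPM in replicate 1, with the other libraries at 0. Replicate 2 at 0 h was low in Ccl5 (2.02 CPM), Cxcl9 (2.28 CPM) and Hdc (0.0519 CPM) and high in Dusp6 (119.9 CPM). Replicate 3 at 0 h was low in Socs3 (0.529 CPM) and high in Irf7 (26.9 CPM). At 5 h, replicate 2 was low in Irf7 (696 CPM), and replicate 3 was high in Nrp1 (327 CPM). Replicate 4 at 5 h was high in Pmaip1 (13.8 CPM) and low in Idh1 (86.1 CPM), Pcna (482 CPM) and Smad3 (2.36 CPM).

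For 24 named genes the response at 5 h differed between knockout and wild type by the interaction term (edgeR's quasi-likelihood test, adjusted p under 0.05). The rise in the knockout was larger, on the log2 scale, for Cxcl9 (5.08, adjusted p = 0.00226), Iigp1 (2.99), Gbp2 (1.93), Gbp5 (1.71), Cxcl10 (1.26, adjusted p = 2.28e-06), Acod1 (1.15), Ifit1 (0.72), Tfec (0.61), Oas3 (0.57) and Cxcl2 (0.57). Arhgap19 (0.82), Pparg (0.81), Tnfsf12 (0.80) and Bub1b (0.63) fell in wild type, so their positive differences are smaller falls in the knockout. Slamf1 (3.44) rests on a level in the knockout at 0 h of at most 3 counts per library, and its fitted difference is no bound. The difference of Cxcl9 also rests on few counts in the knockout at 0 h. Its mean there lay near the level of 3 counts per library (0.202 CPM in wild type at 0 h). Cxcl9 had 0.203 ± 0.162 CPM in the knockout and 3.47 ± 0.791 in wild type at 0 h, and 1884 ± 742 and 868 ± 17.0 at 5 h. In the same order, Cxcl10 had 2.24 ± 0.540 and 5.43 ± 0.627 CPM at 0 h, and 6702 ± 333 and 6777 ± 108 at 5 h. Acod1 had 2.46 ± 0.777 and 6.00 ± 0.970 CPM at 0 h, and 8682 ± 619 and 9467 ± 170 at 5 h. Neither Cxcl10 nor Acod1 had a higher mean in the knockout at 5 h. The log2 change was lower in the knockout for Pfkfb3 (-1.02, adjusted p = 4.90e-08), Dusp1 (-0.83), Fcgr2b (-0.78), Slc2a1 (-0.64), Mmp13 (-0.62), Tgfbi (-0.62) and Tnfaip3 (-0.31). Cd300lb (-0.83) and Cyth4 (-0.70) fell in wild type and fell further in the knockout.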

How the results depend on the processing

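The number of genes higher and lower at 5 h than at 0 h stayed within 1.5 times of the main count with DESeq2's test and size factors, other filters, summed transcripts and each left-out library (1748 to 1788 higher and 2022 to 2049 lower). It moved with library totals (1136 and 4380), with no limit on the log2 fold change (3382 and 4518), a limit of 0.58 (3319 lower) and a limit of 2 (920 and 674). Against 1 h the left-out libraries gave 1566 to 1604 higher and 1814 to 1836 lower, library totals 3325 lower, no limit 3254 and 4056, a limit of 0.58 2973 lower and a limit of 2 738 and 664. Against 18 h they gave 1592 to 1682 and 1756 to 1805, no limit 3747 and 4051, a limit of 0.58 2659 and 2980 and a limit of 2 614 and 483. The count of log2 changes higher in the knockout ran from 130 to 299 over left-out libraries and that of lower ones from 106 to 206. The latter was 236 with DESeq2's test and 94 with no filter, and fitting only the libraries compared gave 79 higher and 87 lower. In the promoters from 250 bases before to the start, 6.55% of windows of genes that rose held the ISRE, against 7.82% in the full windows. The share of the antiviral genes was 31.4% against 45.7%, and that of the interferon-inducible GTPases stayed at 90.9%. Library totals turned the sign of H2-D1 (-0.12), Cd74 (-0.061), Slc2a1 (-0.42), Ldha (-0.46) and Pcna (-0.57), none of which had passed, and moved 18 of 42 counts over gene groups. Of 168 named genes, 30 changed sides of the threshold or sign under some setting, 7 of them under a setting other than library totals. No pairing by replicate number was seen, with correlations of same-numbered libraries at 0 and 5 h of -0.01, -0.15, 0.07 and -0.21. Differently numbered libraries gave -0.16 to 0.18. These values cannot tell whether same-numbered libraries came from the same animal. With the number as a replicate block the counts were 1765 higher and 2027 lower. They were 1585 and 1820 against 1 h, 1615 and 1773 against 18 h and 143 and 112 for the interaction. The scaling with library totals was added after the data were seen. The cause of these changes was not tested. Levels under 3 counts per library (0.202 CPM at 0 h and 0.349 at 5 h on average) were not detectable at this depth.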
